A study of Mus musculus with 4 samples.

Results

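The SCL ChIP-seq peaks at promoters of FLK1+ mesoderm were examined. A peak was taken as a promoter peak when its summit lay within 1 kb of a transcription start site (TSS) of a protein-coding, lincRNA or processed_transcript gene in the GENCODE vM1 annotation of mm9. Of the 12885 peaks in the list, 1092 met this rule, a share of 8.48% (Wilson 95% confidence interval 8.01 to 8.97%), and 11793 lay further away. The number of SCL-bound loci that the study works with is smaller than this list, and the methods name a viewer used to filter peaks, with criteria not given in the sources used here, so the counts and shares below refer to the list as deposited. The peaks came from 2 SCL ChIP libraries and 2 input libraries of FLK1+ cells. These cells carry the receptor FLK1 and were purified with an antibody to it from embryoid bodies (EBs), the aggregates in which wild-type J1 embryonic stem (ES) cells (strain C57Bl/6 X Sv129) differentiate, at day 3.5, from 2 independent differentiations. The ChIP used an in-house SCL rabbit anti-serum and the inputs used no antibody. FLK1+ cells are a mixed population in which only some cells express SCL, so a peak is an average over cells. The authors merged the replicates before calling peaks, so replicate error cannot be given, and the intervals treat the peaks of this 1 list as independent draws or cover counting error only. A peak list holds no expression, so the cell type could not be checked on marker genes.

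SCL, encoded by Tal1, is a basic helix-loop-helix (bHLH) transcription factor that is required for blood formation. It pairs with E proteins to contact the E-box, and LMO2 and LDB1 bridge it to GATA factors, so that many of its sites hold a CTG, which is part of an E-box, a short distance before a GATA motif. It also recruits co-repressors of the ETO family. Core promoters differ in base composition, as genes used in many tissues tend to start in CpG-rich sequence and many tissue-specific genes do not.

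Sequences around the CTG and GATA of named promoter peaks are shown first, because 17 of the 25 promoter peaks of highest fold held this pair. They come from those peaks and from the gene lists described further on. They were read from the mm9 genome on the strand on which CTG comes before GATA, and the capitals mark CTG and GATA.

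Runx1t1 (chr4:13678411-13678440, + strand): cctccatCTGggccctgctGATAttgtaat
Lyl1 (chr8:87225536-87225565, - strand): tggctgcCTGgccgcggctGATAagaagca
Nfe2, stronger peak (chr15:103082221-103082250, + strand): ggttcccCTGcctgggccaGATAaggggtt
Nfe2, weaker peak (chr15:103088967-103088996, - strand): tgcaatgCTGtggggcactGATAaaaggcc
Art4 (chr6:136806213-136806242, - strand): ggaaagcCTGgggctgcaGATAatgggact
Cbfa2t3 (chr8:125223104-125223133, + strand): cagccagCTGtgtcacagtGATAatgcggt
Itga2b (chr11:102331496-102331525, + strand): aagcaagCTGttctcccctGATAagaccag
Sfpi1 (chr2:90936877-90936906, - strand): gaagggcCTGccactgggaGATAgtcccct
Gata1 (chrX:7545551-7545580, + strand): gcctgctCTGgggcagcaGATAagtcttat
Klf1 (chr8:87425202-87425231, + strand): gaaacatCTGgtgtgtctGATAatgcctga
Epb4.2 (chr2:120862520-120862549, - strand): ccagcagCTGgcctaggaGATAgcagcagg
Fli1 (chr9:32349236-32349265, + strand): tcatgcaCTGcgcacacagGATActtgctc
Pecam1 (chr11:106576601-106576630, + strand): atgaggtCTGggctggcctGATAtctcctc
Ripply2 (chr9:86910322-86910351, + strand): cgaaggtCTGcaagggctaGATAaagccgg

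The gap between CTG and GATA was 8 bp in Art4, Gata1, Klf1 and Epb4.2 and 9 bp in the other sequences shown, where gaps of 7 to 9 bp were searched. The bases between the pair differed from gene to gene. The middle of the pair lay 0 bp from the summit in Fli1, 4 bp in Gata1 and Ripply2, and 38 bp in Cbfa2t3. Relative to the TSS, where negative values are upstream, it lay at -19 bp in Runx1t1, at -20 bp in Pecam1 and at 194 bp in Lyl1.

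The promoter peaks of highest fold enrichment were named by the gene of the nearest TSS. The fold is the number of fragments at the summit over that of the local background, with 1 fragment added to each, which lowers the fold where the background is low. The strongest was at Runx1t1, which encodes an ETO family co-repressor (chr4:13678135-13679122). Its summit lay 4 bp from the TSS in a non-coding part of an exon, and its fold of 330.7 rested on 1664 ChIP fragments (Poisson 95% interval 1585 to 1746) over a local background of 4.04 fragments. The second was at Lyl1, the closest relative of SCL (chr8:87224893-87225894), with a fold of 293.9 and the most fragments of these peaks, 2757, over a background of 8.38. The next lay at -645 bp from Gm14453 (fold 225.3) and 322 bp into E030042O20Rik (fold 206.7), a start that lies close to that of Nfe2l2, which encodes a stress-response factor. The E030042O20Rik peak had an E-box but no GATA motif near its summit.

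Nfe2, a factor of red cell and platelet gene expression, had a strong peak at each of 2 start sites. The first lay at chr15:103081947-103082419, in an intron and at -124 bp from a later TSS, with a fold of 190.9. The other lay at chr15:103088684-103089234, in intergenic sequence at -167 bp, with a fold of 119.8. Both peaks held a CTG and GATA pair with a 9 bp gap. The pair read against the gene in the stronger peak and with it in the weaker one.

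Genes of the SCL complex stood among these peaks. Tal1 itself had a fold of 127.4 at 253 bp inside the gene (chr4:114728833-114730557), and Cbfa2t3, which encodes the co-repressor ETO2, had a fold of 120.7 at -148 bp (chr8:125222876-125223754). Blood cell surface genes were there too. Art4, which encodes the Dombrock blood group carrier, had a fold of 188.8 at -5 bp. Itga2b, which encodes the early blood and platelet marker CD41, had a fold of 102.9 at -44 bp. Tspan32, a tetraspanin of blood cells, had a fold of 100.9 at 656 bp.

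The remainder of the 25 strongest peaks had mixed functions. They lay at Ppp1r15a, a phosphatase subunit of the stress response (fold 162.1), Hhex, a homeobox factor of early blood and endothelium (109.9), Grap2, a signalling adaptor of blood cells (124.6), Med12, a Mediator subunit (110.4), and Wnk4, a kinase of salt transport (108.1). March2, which encodes a ubiquitin ligase, had a fold of 131.8, Fam110c 132.5, Fam126a 106.6, Akap13, a signalling scaffold, 100.6 and D1Ertd622e 105.9. The last 4 of the 25 were at starts of poorly described genes, 1700031F10Rik (145.2), A930019D19Rik (132.6), Gm16629 (114.1) and Gm11019 (108.6). Among the 25 peaks 21 had a GATA motif within 50 bp of the summit and 3 were in CpG-rich sequence, both as defined further on. Of all promoter peaks 26 had a fold of at least 100, a share of 2.38% (1.63 to 3.47%), and of the other peaks 189 did, a share of 1.60% (1.39 to 1.85%). These intervals overlapped. Among the 100 peaks of highest fold in the whole list, 11 were promoter peaks.

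To see how promoter peaks sat on the gene, summits were placed against the nearest TSS. They gathered just upstream of it, with 179 summits in the 100 bp before the TSS and 106 in the 100 bp from it onwards. Further out the number per 100 bp fell to between 26 and 48 from 300 bp onwards on either side. The median distance was 280.5 bp, and 643 summits (58.9%, 55.9 to 61.8%) were upstream. The summit lay in an intron for 498 peaks, in intergenic sequence for 344, in a non-coding part of an exon for 203 and in a coding exon for 47. The introns can belong to another transcript of the same gene or to an overlapping gene.

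**Figure D1:**
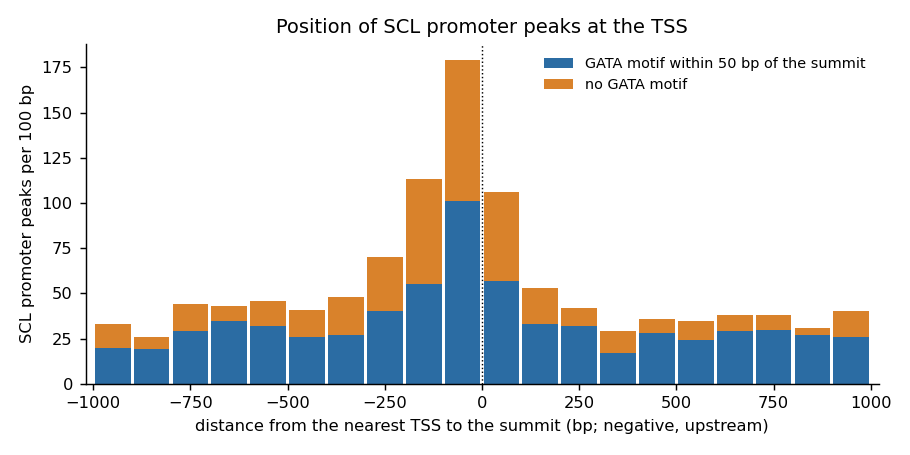
SCL promoter peaks per 100 bp (vertical axis) by the signed distance in bp from the nearest TSS to the summit (horizontal axis), with peaks that have a GATA motif within 50 bp of the summit in blue and the others in orange. The tallest bar, 179 peaks, is the 100 bp before the TSS, and 101 of them had a GATA motif.

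The nearest start was that of a protein-coding gene for 963 peaks, of a processed_transcript gene for 75 and of a lincRNA for 54. For 716 peaks (65.6%) it was, or lay near, the first start of the gene, since that start was within 1 kb as well, and for 376 peaks (34.4%) the first start was further away. Peaks near only a later start had a higher median fold, 11.6 (10.5 to 13.1), than those near a first start, 9.12 (8.45 to 9.88), and these intervals did not overlap. They had a GATA motif more often, 70.2% (65.4 to 74.6%) against 59.1% (55.4 to 62.6%), and lay in CpG-rich sequence less often, 5.85% (3.90 to 8.70%) against 28.4% (25.2 to 31.8%). Few peaks were shared between genes, as 75 peaks had starts of at least 2 genes within 1 kb and 66 had starts on both strands.

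The 1 kb limit fell among peaks that did not stand apart. Just inside it were the peaks at St6gal1 (1000 bp, fold 7.70) and Cmas (999 bp, fold 26.4), and just outside it those at Stra6 (1002 bp, fold 11.8) and Commd5 (1003 bp, fold 11.3).

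Across all promoter peaks the fold ran from 1.46 to 330.7 with a median of 9.94 (9.61 to 10.6). The median of the other peaks was 11.3 (11.1 to 11.4), and these intervals did not overlap. The fragments at the summit had a median of 54.0 (52.0 to 57.0) at promoters and 53.0 (52.0 to 54.0) elsewhere, with overlapping intervals. The local background was higher at promoters, with medians of 4.19 and 3.67 fragments. Its part in the lower fold was not tested. Promoter peaks were wider, with a median of 426.5 bp (416.0 to 437.0) against 394.0 bp (391.0 to 399.0). For a promoter peak of median height, 54 fragments, counting error alone gives an interval of 40.6 to 70.5 fragments.

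A small group of promoter peaks lay in regions of very high background. For 27 promoter peaks the background was over 10 times the median of all peaks, and 18 of them were on chromosome 9 at predicted genes such as Gm10718 and Gm10722. The highest was at Gm10800 on chromosome 2, with 29733 fragments over a background of 13787. Their folds were low, between 1.46 and 5.51. Without them the median fold of promoter peaks was 10.2 and that of the other peaks, treated alike, was 11.3, and the share with a GATA motif was 64.1% and 74.3%.

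To ask which DNA motifs promoter peaks held, sequences within 50 bp of the summit (101 bp windows) were searched on both strands. GATA was counted as AGATA or TGATA followed by A or G, the E-box as CANNTG, and the composite as CTG, a gap of 7 to 9 bp, and the core GATA. The composite can overlap both other motifs. As composites need only the core GATA, 52 of the 349 peaks with a composite, among them that of Runx1t1, had no counted GATA motif. GATA was found in 687 promoter peaks, 62.9% (60.0 to 65.7%), and in 74.1% (73.3 to 74.9%) of the other peaks. The difference of -11.2 points had an interval of -14.2 to -8.27. Windows of the same length placed 1 kb to either side of the promoter summits held GATA in 15.2% of cases. Such windows beside the other summits held it in 18.0%. The ratio of the summit share to this flank share was 4.15 for promoter peaks and 4.12 for the other peaks. Windows tiled over the promoters of all 26212 genes held GATA in 13.7%.

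The composite was as frequent at promoters as elsewhere within the interval of the difference. It was found in 349 promoter peaks, 32.0% (29.3 to 34.8%), and in 32.9% (32.1 to 33.8%) of the other peaks, a difference of -0.98 points (-3.81 to 1.96). In windows tiled over all promoters its share was 2.37%. A scan of gaps from 0 to 20 bp found CTG and GATA most often 9 bp apart, in 204 promoter peaks (18.7%, 16.5 to 21.1%), next 8 bp apart, in 114 (10.4%, 8.76 to 12.4%), and 10 bp apart in 54 (4.95%). In the other peaks these shares were 18.3, 12.5 and 6.60%. The composite had no preferred direction, as it read in the direction of the nearest gene in 170 of the 339 promoter peaks with a composite on a single strand, 50.1% (44.8 to 55.4%).

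The E-box was found in 46.5% (43.6 to 49.5%) of promoter peaks and 53.1% (52.2 to 54.0%) of the others, while windows tiled over all promoters held it in 36.8%. The E-box form CAGATG was found in 15.8% of promoter peaks and 19.9% of the others, a difference of -4.17 points (-6.33 to -1.78). For CAGCTG, found in 13.0% and 14.2%, the interval of the difference ran from -3.13 to 1.06 points. ETS motifs, counted as CCGGAA or CAGGAA and bound by factors such as FLI1 and ETV2, were found in 27.8% (25.3 to 30.6%) of promoter peaks against 33.2% (32.4 to 34.1%) of the others and 12.9% of the tiled windows. RUNX motifs (TGTGGT or TGCGGT) were found in 9.16% (7.59 to 11.0%) of promoter peaks and 10.9% of the others. Their share in tiled windows, 8.01%, lay within the interval of the promoter peaks.

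Motifs of core promoters were also counted. The GC box GGGCGG, bound by SP factors, was found in 9.80% (8.17 to 11.7%) of promoter peaks, in 2.59% of the other peaks and in 8.87% of tiled windows, a value within the interval of the promoter peaks. In windows centred on the TSSs of all genes its share was 25.2%. CCAAT was found in 9.16% of promoter peaks (7.59 to 11.0%), 8.48% of the other peaks and 12.5% of tiled windows. The TATA box letters TATAAA were found in 1.01% (0.56 to 1.79%), 1.58% and 5.46%, in the same order. In the windows 1 kb beside the summits CCAAT was found in 11.7% at promoter peaks and 13.4% at the others. For TATAAA these shares were 5.95 and 7.41%, so low shares at the summit were not particular to promoter peaks. NRF1 letters (GCGCATGCG) were found in 1 promoter peak and CRE letters (TGACGTCA) in 2.

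**Figure D2:**
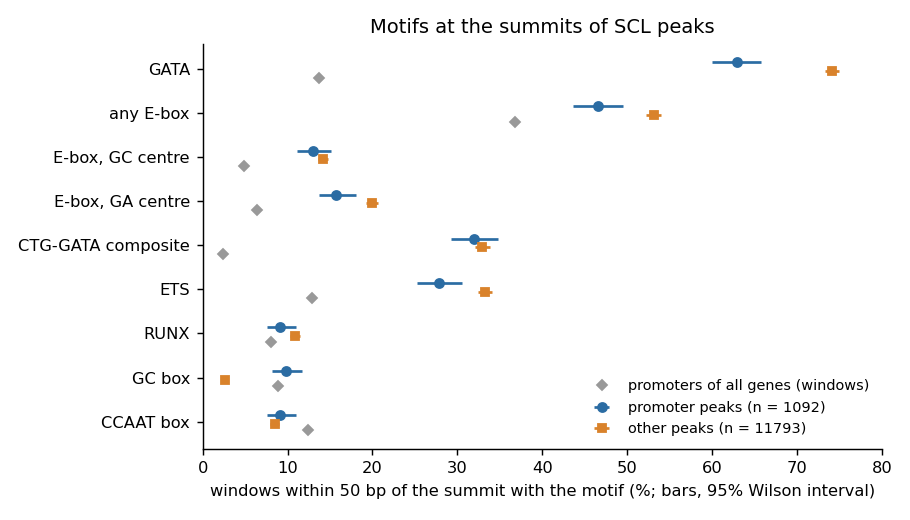
Share of 101 bp windows with each motif (horizontal axis, %) at the summits of promoter peaks (blue circles), at those of other peaks (orange squares) and in windows tiled over the promoters of all genes (grey diamonds), with bars for 95% Wilson intervals. The promoter and other peaks differ in GATA (62.9 and 74.1%) and share the composite at 32.0 and 32.9%.

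The GATA share depended on the distance to the start. Within 50 bp of a TSS 52.6% of summits had GATA (44.7 to 60.4%, n = 152), between 251 and 500 bp 63.0% (56.1 to 69.4%, n = 200) and between 501 and 1000 bp 72.5% (67.7 to 76.7%, n = 374). Beyond 1 kb the share stayed between 72.5 and 74.4% in bins out to 100000 bp. In the windows tiled over the promoters of all genes GATA was also rarest at the first TSS, with 8.23%. At 1000 bp upstream and downstream of it, these windows held GATA in 17.5 and 16.1%. The part of this background in the course at the summits was not tested. The composite share had no such course, with 32.9% (25.9 to 40.7%) within 50 bp and 36.4% (31.7 to 41.4%) between 501 and 1000 bp.

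CpG-rich sequence showed no steady course near the TSS and was less frequent beyond 250 bp. A summit was called CpG-rich when the 501 bp around it had a GC content of at least 50% and a ratio of observed to expected CpG of at least 0.6. This held for 225 promoter peaks, 20.6% (18.3 to 23.1%), and for 0.86% (0.71 to 1.04%) of the other peaks. The share was 27.6% (21.1 to 35.2%) within 50 bp of the TSS, 35.1% (29.2 to 41.4%) at 101 to 250 bp and 7.22% (5.01 to 10.3%) at 501 to 1000 bp.

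**Figure D3:**
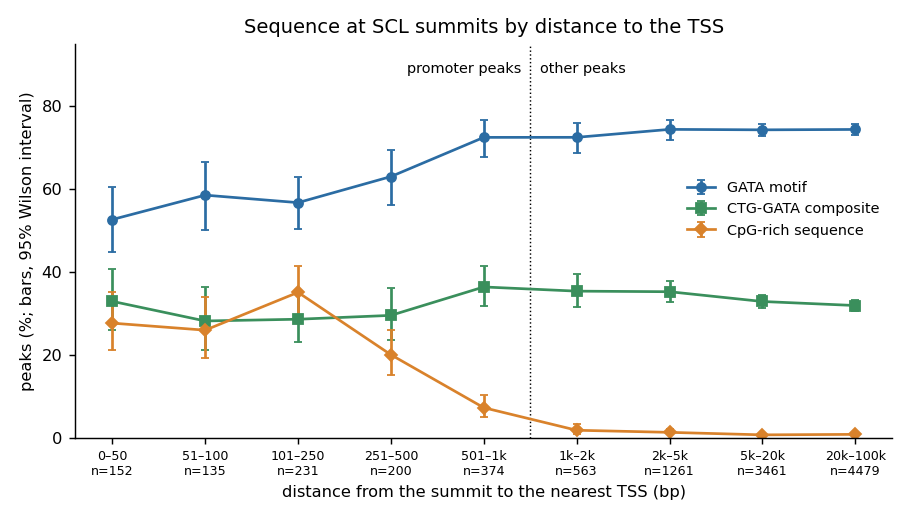
Share of peaks (vertical axis, %, bars for 95% Wilson intervals) with a GATA motif (blue), with the CTG-GATA composite (green) and in CpG-rich sequence (orange) by the distance in bp from the summit to the nearest TSS (horizontal axis, with n per bin). Within 1 kb, left of the dotted line, the GATA share goes from 52.6 to 72.5% while the CpG-rich share ends at 7.22%.

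Promoters of all genes were compared at the first TSS, with the summits placed against the first TSS of their nearest gene. Of all genes 44.0% were CpG-rich at the first TSS, against 32.5% (23.1 to 43.5%) of the 77 summits within 50 bp of it. At 100 bp downstream the shares were 45.1% of all genes and 43.8% (30.7 to 57.7%) of the 48 summits there, within the interval. At 200 bp upstream they were 32.9% of all genes and 47.6% (35.8 to 59.7%) of the 63 summits there, with the share of all genes below the interval. The order of the shares thus differed with position. Of the genes with a CpG-rich first TSS, 554 of 11527 had a promoter peak, 4.81% (4.43 to 5.21%), against 529 of 14685 other genes, 3.60% (3.31 to 3.92%). Among the 716 peaks near a first start, 319 (44.6%) had a CpG-rich TSS. In 188 of these (58.9%) the summit was CpG-rich too, at a median of 159.5 bp from the start. In the others, where the summit was not, the median was 670.0 bp.

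Motifs and base composition went together at the summits. Of the 225 CpG-rich promoter peaks 76 had GATA, 33.8% (27.9 to 40.2%), and of the 867 others 611 had it, 70.5% (67.3 to 73.4%). GATA is also rarer in CpG-rich promoters in general, where 4.14% of tiled windows held it, against 16.4% of the other windows. The GC box ran the other way, with 26.7% (21.3 to 32.8%) of CpG-rich promoter peaks and 5.42% of the others. Among peaks that were not CpG-rich, promoter peaks and other peaks differed less in GATA, 70.5% against 74.4%, a difference of -3.93 points (-7.15 to -0.88). Their composite shares were 35.5% and 33.1%, with an interval of the difference of -0.76 to 5.82 points.

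Windows of 101 bp centred on 4 promoter summits outside annotated exons show these kinds of sequence. Each is printed on the strand of the gene, and capitals mark GATA motifs, E-boxes, ETS motifs, GC boxes and the CTG and GATA of composites. Grap2 and Tal1 stand for strong peaks in CpG-poor and CpG-rich sequence, Hhex for a strong peak with no GATA motif or E-box, and Rnf44 for a CpG-rich peak of that kind.

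Grap2 (chr15:80453754-80453854, + strand): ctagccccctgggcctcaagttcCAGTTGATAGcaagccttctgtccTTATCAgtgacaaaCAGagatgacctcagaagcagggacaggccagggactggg
Tal1 (chr4:114729234-114729334, + strand): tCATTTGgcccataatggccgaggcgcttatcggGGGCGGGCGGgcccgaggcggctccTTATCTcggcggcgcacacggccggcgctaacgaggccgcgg
Hhex (chr19:37510210-37510310, + strand): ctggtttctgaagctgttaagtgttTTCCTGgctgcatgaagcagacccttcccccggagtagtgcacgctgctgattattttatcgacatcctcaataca
Rnf44 (chr13:54795271-54795371, - strand): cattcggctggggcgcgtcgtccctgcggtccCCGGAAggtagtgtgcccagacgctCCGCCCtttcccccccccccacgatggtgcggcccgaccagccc

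Grap2 (fold 124.6) held 2 counted GATA motifs, an E-box and a composite, while Tal1 (fold 127.4) held GATA, an E-box and overlapping GC boxes. Hhex (fold 109.9) held only an ETS motif of those marked. Rnf44, which encodes a RING finger protein, held an ETS motif and a GC box and had a fold of 26.7.

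To compare binding strength between kinds of sequence, each peak was put in 1 of 4 classes. The 349 promoter peaks with a composite had the highest median fold, 14.4 (12.8 to 17), followed by 11.3 (10.2 to 12.4) for the 390 with GATA but no composite. The 142 with an E-box but no GATA or composite had a median of 7.85 (7.10 to 8.52) and the 211 with none of these a median of 7.07 (6.66 to 7.33). The same 4 medians in the other peaks were 13.3 (12.9 to 13.7), 11.1 (10.8 to 11.4), 9.46 (9.17 to 9.90) and 9.01 (8.69 to 9.32). Promoter and other peaks therefore overlapped in the interval of the median in both classes with GATA, and promoter peaks were lower in both classes without. Without the high-background peaks the classes without GATA were still lower at promoters, 8.22 (7.46 to 8.94) against 9.61 (9.24 to 9.98) and 7.18 (6.85 to 7.53) against 9.12 (8.74 to 9.41).

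**Figure D4:**
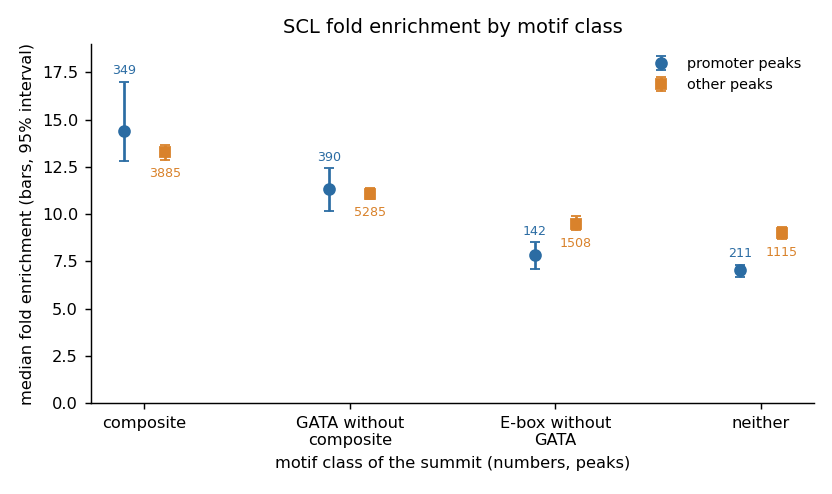
Median fold enrichment (vertical axis, with bars for the 95% interval of the median) by motif class of the summit (horizontal axis) for promoter peaks (blue circles) and other peaks (orange squares), with the number of peaks beside each point. Promoter peaks with neither GATA nor an E-box sit lowest, at 7.07, and those with a composite highest, at 14.4.

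The class with none of these motifs made up 19.3% (17.1 to 21.8%) of promoter peaks and 9.46% of the other peaks. Of its 211 promoter members 97 were CpG-rich, 46.0% (39.4 to 52.7%), and their median distance to the start was 161.0 bp, against 333.0 bp for promoter peaks with a composite. ETS motifs were found in 31.8% (25.9 to 38.3%) of this class at promoters and in 44.8% (41.9 to 47.7%) elsewhere. The CpG-rich promoter peaks without GATA, 149 in all, had a median fold of 6.82 (6.52 to 7.11) over a median background of 5.24 fragments, and the 611 peaks with GATA in other sequence a median fold of 13.1 (11.9 to 14.3) over 4.19 fragments.

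The difference in GATA lay among weak peaks. Of the 549 promoter peaks with a fold under 10, 48.6% (44.5 to 52.8%) had GATA, against 67.2% (65.9 to 68.5%) of the other peaks under 10, a difference of -18.5 points (-22.9 to -14.2). Of the 543 promoter peaks with a fold of at least 10, 77.3% (73.6 to 80.7%) had GATA, against 79.3% (78.3 to 80.2%), and the interval of the difference, -5.76 to 1.53 points, held 0. In these strong peaks the composite was found in 42.2% at promoters and 38.0% elsewhere, and the interval of the difference was -0.05 to 8.55 points. In the weak peaks the order was the other way, with 21.9% at promoters and 26.2% elsewhere. That difference was -4.35 points (-7.83 to -0.51). CpG-rich sequence made up 30.6% of the weak promoter peaks and 10.5% of the strong ones.

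The promoter peaks marked 1083 genes, 4.13% of the 26212 annotated genes (3.90 to 4.38%). The share was 4.25% for protein-coding genes, 4.24% for lincRNA genes and 3.03% for processed_transcript genes. At least 2 promoter peaks were found at 77 genes and 3 at 9 genes. Among the latter were Sfpi1, which encodes the myeloid factor PU.1 (folds from 6.16 to 43.5), and Uros, a haem synthesis enzyme (5.40 to 36.7). Gm10718 (1.75 to 3.29) and Sfi1 (2.02 to 2.73) were also among the 9, and all their promoter peaks were in the high-background group. Of the 1083 genes 433 (40.0%, 37.1 to 42.9%) were also the nearest gene of 1 or more peaks beyond 1 kb, and of the genes without a promoter peak 23.5% had such a peak. Another summit lay within 12.5 kb for 35.4% of promoter peaks and 34.4% of the other peaks, a difference of 0.90 points (-2.01 to 3.91).

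Gene lists of blood and endothelium were compared with that background of 4.13%. These lists, and those of other lineages below, were written with earlier results of these data known. Their shares of promoter peaks are therefore not independent evidence. In the SCL complex list 6 of 17 genes had a promoter peak, 35.3% (17.3 to 58.7%), and 4 of these 6 had a composite in the strongest one. Besides Runx1t1, Lyl1, Tal1 and Cbfa2t3 above, Gata1, the red cell GATA factor, had a fold of 43.7 at -533 bp and Tcf3, which encodes the E protein partner of SCL, a fold of 9.24 at -94 bp. Another 8 of the 17 genes of the list were nearest to peaks beyond 1 kb only, against 5915 of all 26212 annotated genes.

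Blood transcription factors had promoter peaks at 9 of 26 genes, 34.6% (19.4 to 53.8%). After Nfe2 and Hhex, the strongest were at Spi1, named Sfpi1 in the annotation, with a fold of 43.5 at -37 bp, and at Klf1, the red cell Krüppel-like factor, with 26.1 at -617 bp. The median of the strongest promoter peak over the 9 genes was 25.8, against 10.03 for the strongest promoter peak of each of the 1083 genes that had one. The summits of 6 of the 9 had GATA, 66.7% (35.4 to 87.9%), an interval that held the 62.9% of all promoter peaks.

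Red cell genes had promoter peaks at 15 of 34 genes, 44.1% (28.9 to 60.5%), an interval that overlapped those of both lists above. At the strongest promoter peak 13 of the 15 had GATA, 86.7% (62.1 to 96.3%). This interval held the 62.9% of all promoter peaks. Epb4.2, a protein of the red cell membrane skeleton, had a fold of 43.3 at 27 bp, and Epor, the erythropoietin receptor, a fold of 36.6 at 920 bp in an intron. Uros had 36.7 at -91 bp and Trim10, a red cell RING finger protein, 28.5 at -118 bp. The haem synthesis genes Urod, Cpox, Ppox and Fech were among the remainder, with summits between -187 and 120 bp from the start. The median fold over the 15 was 19.6.

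Endothelial genes had promoter peaks at 9 of 34 genes, 26.5% (14.6 to 43.1%). Nos3, the endothelial nitric oxide synthase, had a fold of 61.1 at 921 bp, and Tek, an angiopoietin receptor, 42.6 at 54 bp. Egfl7, a secreted vessel protein, had 28.6 at -91 bp and Icam2, an adhesion molecule, 26.5 at 62 bp. At the strongest promoter peak 5 of the 9 had GATA, 55.6% (26.7 to 81.1%), an interval that held the 62.9% of all promoter peaks. A CpG-rich first TSS was found at 10 of the 34 genes of this list (29.4%), against 44.0% of all genes. At the strongest promoter peak none of the 9 genes was CpG-rich, against 20.6% of all promoter peaks. No interval was computed for this share of 9 genes. A further 18 of the 34 genes of this list had peaks beyond 1 kb only, against 5915 of all 26212 annotated genes.

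Co-repressor genes had promoter peaks at 6 of 28 genes, 21.4% (10.2 to 39.5%). The list shares Runx1t1 and Cbfa2t3 with the SCL complex, and the next were weaker, Gse1 with a fold of 13.1 and Hdac1, a histone deacetylase, with 7.27. The strongest promoter peak was CpG-rich at 5 of the 6 genes, Runx1t1, Gse1, Hdac1, Zfpm2 and Hdac7, and not at Cbfa2t3. Of all promoter peaks 20.6% were CpG-rich, and of the 28 genes of this list 20 (71.4%) had a CpG-rich first TSS.

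Lists of other lineages and of Polycomb genes lay near the background, with wide intervals. Polycomb genes had promoter peaks at 2 of 36, 5.56% (1.54 to 18.1%), namely Kdm2b, a CpG-binding subunit of a PRC1 complex (fold 16.7 at 986 bp), and Phf19, a partner of PRC2 (7.05 at 190 bp). The Kdm2b peak lay slightly nearer to the start of Orai1, which encodes a calcium channel, at -980 bp from it. Each of the remaining lists had 1 gene. This was Tnni1, a slow troponin, among 26 cardiac genes (fold 18.9 at 763 bp), and Ripply2, a somite repressor, among 22 paraxial mesoderm genes (37.8 at -31 bp). It was Wnt3 among 20 primitive streak and pluripotency genes (19.9 at -687 bp), Gad1 among 15 neural genes (29.0 at -178 bp) and Sox17 among 15 liver and gut genes (21.8 at -80 bp). Sox17 is in the endothelial list as well. Peaks beyond 1 kb only were nearest to 12 of the 26 cardiac genes, 8 of the 22 paraxial mesoderm genes and 12 of the 36 Polycomb genes. They were also nearest to 9 of the 20 primitive streak and pluripotency genes, 5 of the 15 neural and 4 of the 15 liver and gut genes. Of all 26212 annotated genes this held for 5915.

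**Figure D5:**
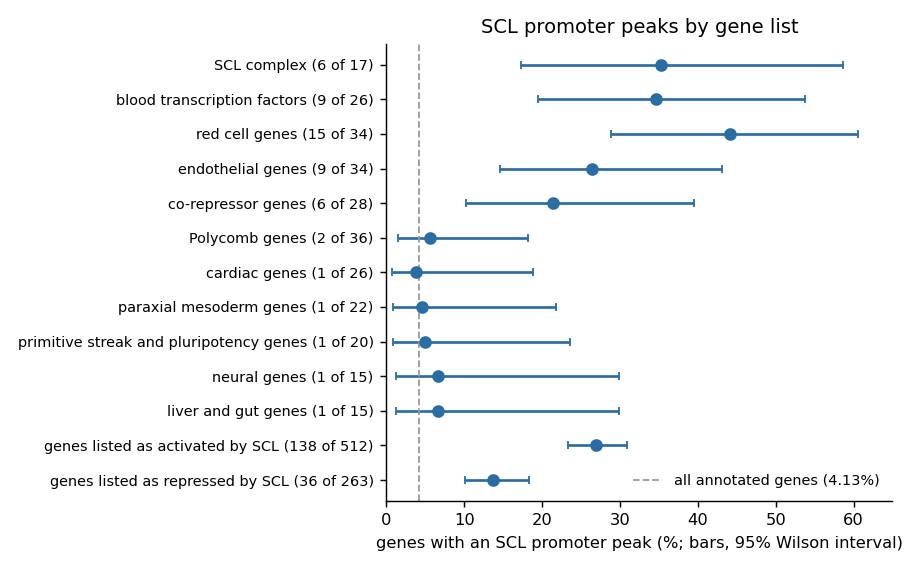
Share of the genes of each list with an SCL promoter peak (horizontal axis, %, bars for 95% Wilson intervals), with the counts beside the list names (vertical axis) and a dashed line at the 4.13% of all annotated genes. The 5 lists of the SCL complex, blood, red cell, endothelial and co-repressor genes lie above the line with their whole interval, and the 6 lists of Polycomb genes and other lineages do not. These lists were written with earlier results of these data known.

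The study lists genes that SCL activates or represses, chosen in part by binding in these same libraries, so their share of promoter peaks is not independent evidence and the background does not apply to it. Of the 512 activated genes found in the annotation 138 had a promoter peak, 27.0% (23.3 to 31.0%), and of the 263 repressed genes 36 did, 13.7% (10.1 to 18.4%). The difference was 13.3 points (7.32 to 18.7). Most of both lists had peaks beyond 1 kb only, 342 activated and 184 repressed genes. The remaining 32 activated and 43 repressed genes had no promoter peak and were not the nearest gene of a peak beyond 1 kb. Assigning peaks to the nearest gene thus left out part of both lists, though binding was part of how they were chosen. CpG-rich first starts were about equally frequent in the activated and repressed lists, 61.1 and 62.7%.

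The promoter peaks of activated genes were also stronger, with a median of the strongest one per gene of 20.4 against 9.15 for repressed genes. The 5 strongest of the activated list were at Runx1t1, Lyl1, Nfe2, Art4 and Ppp1r15a, with the folds given above. Those of the repressed list were at Lrrfip2 (fold 52.2 at -754 bp), Rabep2, an endosome protein (49.4 at -460 bp), Il4, a cytokine (29.7 at -956 bp), Ak1, an adenylate kinase (26.3 at -402 bp), and Kcnk6, a potassium channel (24.5 at 598 bp). GATA was found at the strongest promoter peak of 66.7% (58.4 to 74.0%) of the bound activated genes and 63.9% (47.6 to 77.5%) of the bound repressed genes, and the composite at 45.7% (37.6 to 54.0%) and 30.6% (18.0 to 46.9%). These intervals overlapped.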

How the data were processed

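ChIP-seq reads of FLK1+ cells were processed by the authors, who aligned paired-end reads to mm9 with Bowtie 1.1.2, removed duplicates, called peaks with MACS2 2.0.10 on merged replicates and set the list with the irreproducible discovery rate (IDR), per the labels and the methods of the study. The depth of each library is not given in the sources used here. The deposited fold enrichment, a ratio, and the deposited −log10 p and −log10 q were used as given, and the deposited score was not used. The height of each peak in fragments (its pileup) and its background were solved from fold and p with the MACS2 equations, in which 1 fragment is added to both for the fold, and matched −log10 p within 0.001 in 99.9% of peaks. This gives the depth behind each peak.

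The mm9 genome and GENCODE vM1 (26212 genes, 83917 transcripts) gave starts and sequence, with coordinates counted from 1. Shares have Wilson, differences Newcombe and medians order-statistic 95% intervals, which cover sampling of peaks or counting error only, and no p-value was computed. Python 3.11.15, numpy 2.4.6, pandas 2.3.3 and scipy 1.17.1 were used, and the functions were tested on simulated data. Named were the 25 promoter peaks of highest fold, up to 4 per gene list of highest fold, the 5 strongest of each list of the study and the 2 peaks on either side of the 1 kb limit. Examples outside this rule were chosen after their values were seen. The members and lists were chosen with earlier results of these data known. Of the activated names 489 matched by symbol and 23 by another symbol, and of the repressed 252 and 11. In all, 2 activated and 1 repressed names were unmatched. The values of 1 gene are not reported here, though it is counted in its list.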

Additional observations from a re-analysis of the deposited data

How the results depend on the processing

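Of 69 recomputed values, 33 kept within the interval of the reported value, or within 1.5 times a count. With starts within 500 bp or 2 kb there were 718 or 1655 promoter peaks, with GATA in 57.9 or 66.2%, CpG-rich sequence in 27.6 or 14.2%, and promoter peaks at 2.78 or 6.23% of annotated, 18.2 or 37.9% of activated and 8.37 or 20.9% of repressed genes. With a fold of at least 10 there were 543 promoter peaks (median fold 19.8, GATA 77.3%, composite 42.2%, CpG-rich 10.5%, annotated genes 2.08%, activated 20.7%, repressed 5.70%), and with −log10 q of at least 50 there were 431 (23.6, 78.2%, 43.6%, 9.75%, 1.66%, 18.0% and 3.42%, in the same order). Around the middle of the peak, in place of the summit, GATA was found in 43.3% and the composite in 18.4%. In windows of 25 or 100 bp on each side of the summit, GATA was found in 43.1 or 72.8% and the composite in 19.9 or 39.2%. A CpG ratio of at least 0.75 gave 13.5% CpG-rich peaks, and counting only the gene with the nearest start gave 3.87% of annotated genes. The activated share stayed above the repressed share in the 4 settings of distance, fold and q above. Leaving out the high-background peaks moved no value beyond its interval, nor did leaving out chromosomes 1 and 8, a choice made after seeing the data and run only for the median fold and the GATA, composite and CpG-rich shares. No paired analysis was possible because both ChIP libraries were merged before calling, and for the same reason replicates could not be left out in turn. The depth behind a typical peak limits the order of single weak peaks. Motif matches are letters in a window and not shown to be sites, and the 1 list cannot show variation between differentiations.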
